A study of Mus musculus with 6 samples.

Results

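The 10 genes described here, *Eomes*, *Tbx21*, *Scgn*, *Th*, *Synpr*, *Dlx1*, *Dlx2*, *Meis2*, *Dcx* and *Sox11*, are genes of the olfactory bulb and of the neuroblasts that supply it with neurons. They were found by symbol in GENCODE M21 among the 18254 genes of the deposited mPFC table, and all 10 had 1 row each. The genes were selected on the normalized counts of a single library, TG-2, in which some of them were high, so the values of TG-2 against the other 5 libraries are a description and carry no test. *Eomes*, *Tbx21*, *Scgn* and *Th* were between 2.62-fold and 14.1-fold higher in TG-2 than in the highest of the other 5 libraries. Of the remaining 6 genes, *Dlx1* and *Synpr* were highest in TG-2 by at most 1.16-fold, and *Dlx2*, *Meis2*, *Dcx* and *Sox11* were not highest in TG-2.

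The medial prefrontal cortex (mPFC) was taken from male mice aged 10 to 12 weeks, either EGFP-*Shank3* transgenic (TG) mice, which overexpress the postsynaptic scaffold Shank3 from a tagged transgene, or their wild-type (WT) littermates. Both genotypes were on a C57BL/6J background. Each of the 3 *Shank3* TG and 3 WT libraries pooled the mPFC of 2 mice, so a library is a pool and the spread within a pool cannot be seen. During dissection the front 2 mm of the brain, with the olfactory bulb, was cut away and discarded, and the mPFC was cut from the next 2 mm.

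The olfactory bulb keeps receiving new interneurons in adult rodents. Dividing cells of the subventricular zone give rise to neuroblasts that migrate along the rostral migratory stream, which runs beneath the frontal cortex into the bulb, and there become granule and periglomerular interneurons. The mitral and tufted cells, the glutamatergic output neurons of the bulb, arise before birth. Several of the 10 genes are also used by ordinary cortical neurons, so the genes differ in how far they can be assigned to the bulb.

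Library totals ranged from 28363967 to 29447717 normalized counts. Values of a gene are given in the order TG-1, TG-2, TG-3 for the TG pools and WT-1, WT-2, WT-3 for the WT pools. The mPFC label was checked against cortical excitatory genes, of which *Slc17a7*, the cortical vesicular glutamate transporter, had between 39218 and 45669 normalized counts in each library. *Shank3* itself lay between 16310 and 19003 normalized counts across the TG pools and between 6791 and 8374 across the WT pools, without overlap. The libraries TG-3 and WT-3 stood apart from the other 4. The deviations of TG-3 and WT-3 from their genotype means correlated at 0.616 across genes, so values are also given without them. In this bulk tissue more cells of a type and more RNA per cell cannot be told apart.

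The 250 bases before the RefSeq start of the 4 genes that stood out in TG-2 are shown, because these are the genes that were high together. They are from GRCm38.p6, read 5′ to 3′ on the strand of the gene, in lower case, and capitals mark a match to one of 6 motifs. The motifs were searched on both strands. They were the homeodomain core TAATTA, the core of Meis sites TGACAG, the core of T-box sites AGGTGT, the core of Sox sites ACAAAG, the TATA-box letters TATAAA and the cAMP response element TGACGTCA.
*Eomes* (chr9:118477939-118478188, plus strand): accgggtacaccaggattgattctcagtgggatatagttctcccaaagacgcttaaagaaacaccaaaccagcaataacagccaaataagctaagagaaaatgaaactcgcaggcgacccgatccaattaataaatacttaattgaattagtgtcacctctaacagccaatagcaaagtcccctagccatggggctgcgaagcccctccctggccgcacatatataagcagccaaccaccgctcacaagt
*Tbx21* (chr11:97115332-97115581, minus strand): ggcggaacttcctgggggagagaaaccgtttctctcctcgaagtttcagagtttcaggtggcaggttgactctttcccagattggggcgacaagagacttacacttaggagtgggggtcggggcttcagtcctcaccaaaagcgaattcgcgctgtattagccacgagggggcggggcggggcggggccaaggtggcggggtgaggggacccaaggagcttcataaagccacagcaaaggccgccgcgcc
*Scgn* (chr13:23991215-23991464, minus strand): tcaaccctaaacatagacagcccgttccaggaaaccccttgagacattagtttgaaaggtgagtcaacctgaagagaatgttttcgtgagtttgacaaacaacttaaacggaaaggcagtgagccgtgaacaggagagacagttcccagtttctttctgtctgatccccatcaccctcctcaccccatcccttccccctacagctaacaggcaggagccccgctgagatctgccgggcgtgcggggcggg
*Th* (chr7:142899996-142900245, minus strand): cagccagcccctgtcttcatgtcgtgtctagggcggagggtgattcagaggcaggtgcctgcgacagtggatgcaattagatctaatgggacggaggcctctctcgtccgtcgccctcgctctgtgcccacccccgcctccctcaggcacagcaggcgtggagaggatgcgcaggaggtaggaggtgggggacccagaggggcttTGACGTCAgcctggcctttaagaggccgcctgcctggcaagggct

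The window of *Th* held TGACGTCA, with its first base 45 bases before the start, and the windows of *Eomes*, *Tbx21* and *Scgn* held none of the 6 motifs. TGACGTCA was found in 1.55% of 32851 promoter windows of the same length, TAATTA in 4.84%, TGACAG in 15.9%, AGGTGT in 11.8%, ACAAAG in 16.5% and TATAAA in 12.4%. Absence of a match says only that these letters are not in the window. Of the other genes, a window of *Synpr* held TGACAG, a window of *Meis2* held TATAAA and the windows of *Dcx* held TAATTA and TATAAA, one of them also ACAAAG. The windows of *Dlx1*, *Dlx2* and *Sox11* held none. The window of *Th* lies inside the longer gene that GENCODE M21 draws for *Th*, and windows of *Dlx1*, *Synpr* and *Meis2* and parts of both windows of *Dcx* lie inside those genes likewise.

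*Eomes* and *Tbx21* encode T-box transcription factors, and in the adult bulb both mark mitral and tufted cells. *Eomes* (ENSMUSG00000032446, chromosome 9 from 118478212 to 118486132) read 4.41, 149 and 9.06 normalized counts across the TG pools and 7.15, 9.65 and 30.6 across the WT pools. *Tbx21* (ENSMUSG00000001444, chromosome 11 from 97098071 to 97115331) read 4.74, 61 and 2.11 normalized counts across the TG pools and 0.913, 1.02 and 12 across the WT pools. For both genes TG-2 was the highest library and WT-3 the next, and TG-1 and TG-3 lay among or near the WT libraries. TG-2 was 4.86-fold above WT-3 for *Eomes* and 5.08-fold above WT-3 for *Tbx21*. Among the remaining 5 libraries the highest was 6.94 times the lowest for *Eomes*. *Tbx21* was under 3 normalized counts in TG-3, WT-1 and WT-2, where its value is uncertain. *Tbr1*, another T-box gene of this group and a gene of cortical deep-layer neurons, had between 4262 and 4689 normalized counts in the 6 libraries, and TG-2 was not its highest library.

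*Scgn* encodes secretagogin, an EF-hand calcium-binding protein found in bulb interneurons and their neuroblasts. *Scgn* (ENSMUSG00000021337, chromosome 13 from 23953456 to 23991214) read 2.78, 53.3 and 3.33 normalized counts across the TG pools and 3.77, 0 and 1.2 across the WT pools. TG-2 was 14.1-fold above WT-1, the next library, which was the largest ratio among the 10 genes. The other 5 libraries overlapped between genotypes, and TG-1, WT-2 and WT-3 were under 3 normalized counts, where values are uncertain.

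*Th* encodes tyrosine hydroxylase, the first enzyme of catecholamine synthesis, which is made by dopaminergic periglomerular cells of the bulb among other cells. *Th* (ENSMUSG00000000214, chromosome 7 from 142892752 to 142931128) read 38.1, 170 and 47.2 normalized counts across the TG pools and 43.4, 51.5 and 64.9 across the WT pools. Among the 5 libraries other than TG-2 the highest was 1.70 times the lowest, and TG-2 was 2.62-fold above the highest of them, WT-3. *Th* was thus the member with the smallest TG-2 ratio on the near side of the 2-fold line, at a difference of 1.38 on the scale log2(normalized count + 1). *Dlx1* was the next below the line, at 0.21.

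*Synpr* encodes synaptoporin, a synaptic vesicle protein of granule cells and of some cortical interneurons. *Synpr* (ENSMUSG00000056296, chromosome 14 from 13284780 to 13616340) read 1933, 1975 and 1284 normalized counts across the TG pools and 1585, 1614 and 1122 across the WT pools. TG-2 was highest by only 1.02-fold over TG-1. TG-3 and WT-3 were the lowest libraries of *Synpr*, each the lowest of its genotype.

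*Dlx1*, *Dlx2* and *Meis2* encode homeodomain transcription factors of the GABAergic interneuron lineage, and *Dlx1* and *Dlx2* lie next to each other on chromosome 2. *Dlx1* (ENSMUSG00000041911, from 71528113 to 71533981) read 993, 1364 and 963 normalized counts across the TG pools and 1021, 1147 and 1178 across the WT pools. *Dlx2* (ENSMUSG00000023391, from 71543408 to 71546754) read 112, 136 and 144 normalized counts across the TG pools and 118, 108 and 153 across the WT pools. The 2 neighbours did not share an order of libraries, for TG-2 was highest for *Dlx1*, 1.16-fold above WT-3, and behind WT-3 and TG-3 for *Dlx2*. *Dlx1* shares 335 exon bases with the antisense gene *Dlx1as*, as *Eomes* shares 118 with *Gm33460*, and whether the quantification used the strand is not given in the sources used here. *Meis2* (ENSMUSG00000027210, chromosome 2 from 115863064 to 116065839), which is also expressed in striatal neurons, was the most abundant of the 10 genes, and read 3954, 4502 and 4590 normalized counts across the TG pools and 3319, 3443 and 4487 across the WT pools. TG-3, TG-2 and WT-3 were close together at the top of *Meis2*, and WT-1 and WT-2 lay below all the others.

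*Dcx* encodes doublecortin, a microtubule-binding protein of migrating neuroblasts, and *Sox11* encodes a transcription factor of immature neurons. *Dcx* (ENSMUSG00000031285, chromosome X from 143855842 to 143933311) read 1380, 1565 and 1592 normalized counts across the TG pools and 1292, 1426 and 1641 across the WT pools. *Sox11* (ENSMUSG00000063632, chromosome 12 from 27334264 to 27342574) read 343, 381 and 434 normalized counts across the TG pools and 349, 345 and 455 across the WT pools. For both genes WT-3 and TG-3 were the 2 highest libraries and TG-2 came after them.

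**Figure D1:**
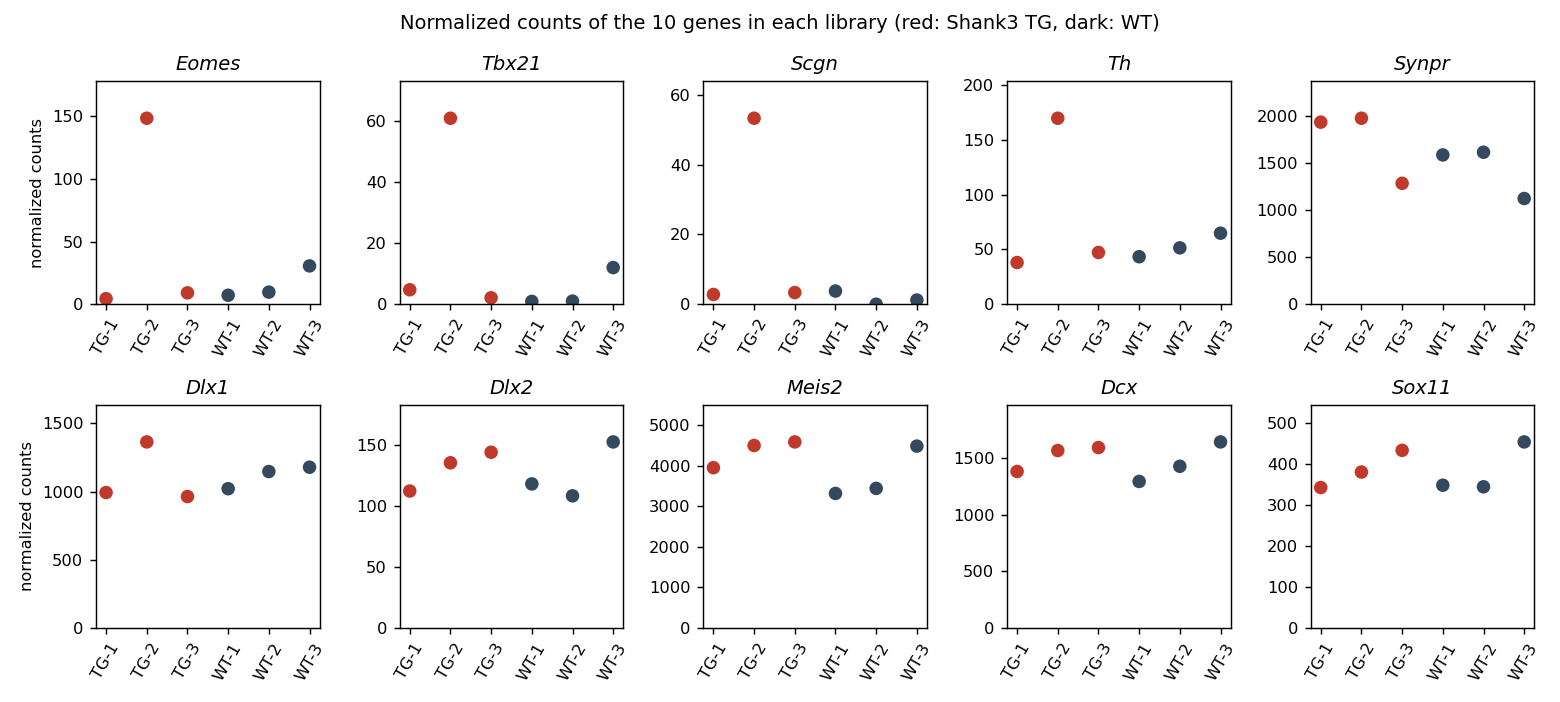
Normalized counts (vertical axes, each from 0) of the 10 genes in the 6 libraries (horizontal axes), 1 point for each library, with *Shank3* TG in red and WT in dark. TG-2 stands far above the other 5 points for *Eomes*, *Tbx21*, *Scgn* and *Th*, while TG-3 and WT-3 are the highest points for *Dlx2*, *Dcx* and *Sox11*.

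Across the 10 genes, TG-2 was at least 2-fold above the highest other library for 4 genes, on the scale log2(normalized count + 1). This was so for 37 of the 16714 genes that averaged 5 or more normalized counts, or 0.221%. TG-2 was the highest library for 6 of the 10 genes and for 12.8% of all tested genes. The median of the 10 genes, TG-2 minus the mean of the other 5 libraries, was 0.39 on this log2 scale, and over all tested genes it was 0.0032. Because the genes were picked for TG-2, nothing is read from these shares. All 10 genes passed the filter, but *Scgn* and *Tbx21* did so only through TG-2, since their means without it were 2.22 and 4.16 normalized counts.

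**Figure D2:**
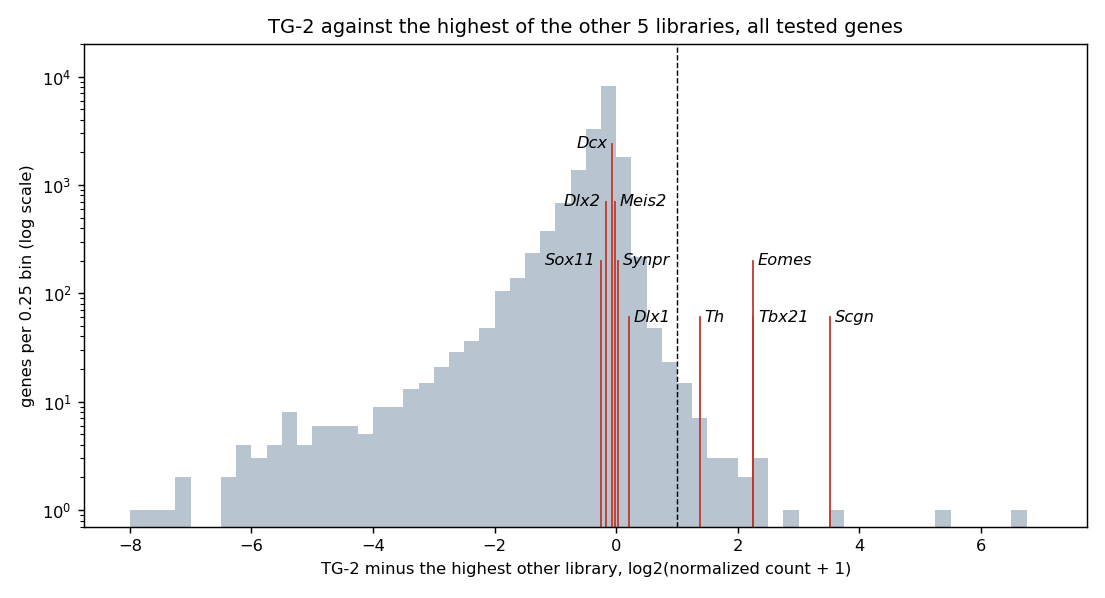
Distribution over the 16714 tested genes of TG-2 minus the highest of the other 5 libraries, in log2(normalized count + 1), with the number of genes per bin on a log axis, the 10 genes as red lines and the 2-fold line dashed. *Scgn*, *Tbx21*, *Eomes* and *Th* lie to the right of the dashed line among 37 genes, and the other 6 genes lie between -0.25 and 0.21.

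TG-3 and WT-3 were both above the other 4 libraries for 3 of the 10 genes, *Dlx2*, *Dcx* and *Sox11*, and for 20.3% of all tested genes. They were both below the other 4 for 1 gene, *Synpr*, and for 20.6% of all tested genes. Counts of 3 and 1 among 10 genes are near those shares. When only the 4 libraries numbered 1 and 2 were compared, TG-2 was the highest for all 10 genes, against 21.7% of the genes tested there. The genes were picked for TG-2, so nothing is read from this count against that share. TG-2 exceeded the next of those 4 libraries by 1.02-fold for *Synpr*, 1.09-fold for *Sox11*, 1.10-fold for *Dcx*, 1.14-fold for *Meis2* and 1.15-fold for *Dlx2*, and for *Dlx1* it stood at 1364 normalized counts against 1147 in WT-2. The same ratio was 3.30-fold for *Th*, 12.9-fold for *Tbx21*, 14.1-fold for *Scgn* and 15.4-fold for *Eomes*.

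WT-3 was the highest of the 5 libraries other than TG-2 for 7 of the 10 genes, namely *Eomes*, *Tbx21*, *Th*, *Dlx1*, *Dlx2*, *Dcx* and *Sox11*. It held this place for 25.9% of all tested genes and for 20 of the 37 genes (54.1%) in which TG-2 was at least 2-fold above the rest. TG-3 held that place for 1 of the 37 genes.

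Per kilobase of exon, the levels in the 5 libraries other than TG-2 ran from *Meis2* down to *Scgn*. *Meis2* had 329 ± 48.3 normalized counts per kilobase (SD, n = 5), followed by *Dlx1* with 196 ± 17.8, *Synpr* with 160 ± 33.4 and *Dcx* with 116 ± 11.6. *Sox11* with 46.4 ± 6.57 and *Dlx2* with 44.5 ± 6.98 did not differ beyond their spread, and *Th* had 20.7 ± 4.3. *Eomes* with 2.93 ± 2.53, *Tbx21* with 1.67 ± 1.87 and *Scgn* with 1.37 ± 0.973 were the lowest and overlapped each other. The amount by which TG-2 exceeded the mean of the other 5 libraries was read on the same scale. It was 56.2 normalized counts per kilobase for *Dlx1*, 51.2 for *Th*, 49.5 for *Synpr*, 45.1 for *Meis2*, 32.8 for *Eomes*, 31.6 for *Scgn* and 22.9 for *Tbx21*. The excess of *Meis2* was within 1 SD of the other 5 libraries. For *Dcx* and *Dlx2* the excess was 7.82 and 2.93, also under 1 SD, and for *Sox11* the difference was -0.49.

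*Shank3* TG was compared with WT on the scale log2(normalized count + 1) with limma's moderated test, fitted to all 16714 genes and adjusted by Benjamini-Hochberg. With all 6 libraries limma called 0 of the 10 genes at an adjusted p-value under 0.05, and 0 of all genes (0%). *Shank3*, whose TG and WT pools did not overlap, was thus not called either, so 0 called says little about the 10 genes. Before adjustment, 0 of the 10 genes were under 0.05, against 2.01% of all genes. The TG and WT pools were fully separated, with TG higher, for 0 of the 10 genes and for 2.91% of all genes. The log2 fold change was 2.14 (standard error 1.13) for *Scgn*, 1.49 (standard error 1.23) for *Tbx21*, 0.52 (standard error 1.17) for *Eomes* and 0.36 (standard error 0.52) for *Th*. The value depended on the pseudocount for *Scgn*, at 3.35 with 0.1 and 1.27 with 5, and for *Tbx21*, at 1.86 and 0.97. The paper used another test, DESeq2 with p-values corrected by an empirical null. It lists *Scgn* among its upregulated genes with the largest fold changes. The log2 fold changes of the other 6 genes were between -0.03 and 0.26, the highest for *Synpr* (standard error 0.20) and *Meis2* (0.22, standard error 0.13). With 3 pools a side, the smallest two-sided p-value of the exact permutation test is 0.1, and the 10 genes had exact p-values from 0.2 to 1. Because TG-2 is in this comparison, its values for the 10 genes are a description.

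Without TG-2, the comparison does not use the library that the genes were picked for. *Scgn* and *Tbx21* then fell under the filter, and 8 genes were tested among 16693. Here limma called 0 of the 8 genes and 0% of all genes after Benjamini-Hochberg adjustment, and before adjustment 0 of the 8 and 2.11% of all were under 0.05. The log2 fold change was positive for 5 of the 8 genes and for 49.6% of all genes. It changed sign from 0.52 to -0.92 (standard error 0.69) for *Eomes* and from 0.36 to -0.30 (standard error 0.26) for *Th*, so that in the remaining libraries both were on average lower in *Shank3* TG. For *Eomes* the genotypes still overlapped, as TG-3 at 9.06 normalized counts lay between WT-1 at 7.15 and WT-2 at 9.65. *Dlx1* went from -0.03 to -0.19 (standard error 0.10). TG-1 and TG-3 lay below all 3 WT libraries, but TG-1 at 993 normalized counts was close to WT-1 at 1021. The share of all genes separated in this way was not computed. *Meis2* went from 0.22 to 0.20 (standard error 0.15) and *Synpr* from 0.26 to 0.15 (standard error 0.22). *Dcx*, *Dlx2* and *Sox11* were between 0.02 and 0.04, with standard errors of 0.13 to 0.21.

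With the replicate number as a block, limma's adjusted p-value was under 0.05 for 1 of all 16714 genes (0.00598%), which was *Shank3*, and for 0 of the 10 genes. Before adjustment 2 of the 10 genes and 4.98% of all genes were under 0.05 in that limma fit. These were *Synpr*, with 0.0022 before and an adjusted p-value of 0.491, and *Meis2*, with 0.0136 before and an adjusted p-value of 0.782. Their log2 fold changes were 0.26 (standard error 0.059) and 0.22 (standard error 0.072). *Synpr* and *Meis2* were higher in *Shank3* TG at each of the 3 replicate numbers, and the share of all genes with this order was not computed. With libraries 1 and 2 only, limma called 1 of 16634 genes (0.00601%) after Benjamini-Hochberg adjustment and 0 of the 10. Before adjustment 3 of the 10 genes and 2.81% of all genes were under 0.05 there, namely *Meis2* (log2 fold change 0.32), *Synpr* (0.29) and *Tbx21* (3.26, adjusted p-value 0.9998). Both fits include TG-2, on which the genes were selected, so these p-values and counts are a description and nothing is read from them against the shares of all genes. *Tbx21* passed the filter only through TG-2.

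**Figure D3:**
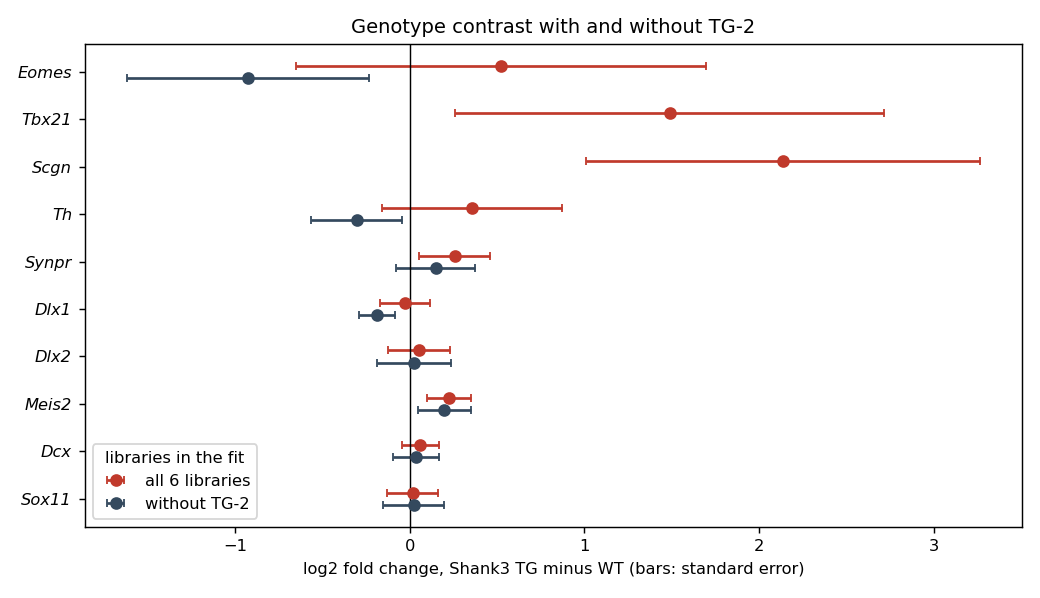
Log2 fold change of *Shank3* TG minus WT (horizontal axis, bars are standard errors of the limma fit) for each of the 10 genes, with all 6 libraries in red and without TG-2 in dark. *Eomes* and *Th* lie on opposite sides of 0 in the 2 fits, and *Scgn* and *Tbx21* have no dark point because they fell under the filter without TG-2.

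Other genes of bulb cells and neuroblasts, of catecholamine handling, of paralogues and of other cortical, striatal and ventricular cells were read from 11 lists with 97 genes that left out the 10 genes, of which 93 were tested. TG-2 was at least 2-fold above the highest other library for 5 of the 93 genes, *Cdhr1*, *Doc2g*, *Calb2*, *Prss56* and *Aqp1*, against 0.221% of all tested genes. Of these, *Prss56* passed the filter only through TG-2, with a mean of 4.83 normalized counts without it. For genotype, limma called 0 of the 93 genes after Benjamini-Hochberg adjustment, and 5 were under 0.05 before adjustment, *Adcyap1*, *Mki67*, *Foxj1*, *Tmem212* and *Ttr*, against 2.01% of all tested genes. The lists were chosen with earlier results of these data known, so nothing is read from the list counts against the shares of all genes.

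Of the mitral and tufted cell list, 10 of 11 genes were tested, TG-2 was at least 2-fold above the rest for 2 and highest for 5, and the median TG-2 difference was 0.54 on the log2 scale. *Cdhr1*, a cadherin-related protein of mitral and tufted cells, read 39.2, 720 and 57.9 normalized counts across the TG pools and 44.2, 39.7 and 100 across the WT pools. TG-2 was therefore 7.19-fold above WT-3, and the ranking with TG-2 first and WT-3 next was that of *Eomes* and *Tbx21*. *Doc2g*, a C2-domain protein of the same cells, had 386 normalized counts in TG-2 and at most 159 elsewhere. The more abundant genes of the list, *Kcng1*, *Coch* and *Adcyap1*, which the cortex also expresses, had TG-2 differences of 0.25, -0.14 and 0.05.

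Of the bulb interneuron list all 13 genes were tested, TG-2 was at least 2-fold above the rest for 1 and highest for 5, and the median difference was 0.28. *Calb2*, encoding the calcium-binding protein calretinin of periglomerular and granule cells, had 911 normalized counts in TG-2 and between 227 and 247 in the other 5 libraries. The other 5 libraries of *Calb2* were thus nearly equal, and TG-2 was 3.69-fold above the highest. *Etv1* and *Tshz1*, transcription factor genes and the most abundant of the list, had differences of -0.18 and -0.04. *Dlx5* and *Dlx6*, the paralogues of *Dlx1* and *Dlx2*, were highest in TG-3, not TG-2, with 104 and 214 normalized counts.

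Of the list for neuroblasts and subventricular progenitors 12 of 13 genes were tested, TG-2 was at least 2-fold above the rest for 0 and highest for 2, and the median difference was 0.04. The most abundant, *Stmn1*, *Tubb2b* and *Ccnd2*, had differences of 0.04, 0.29 and 0.03. The widest difference of the list was 2.30 for *Igfbpl1*, a gene of low level that was at 22 normalized counts in TG-2 and 15.7 in WT-3.

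For the olfactory nerve and ensheathing glia list the counts were 1 gene at least 2-fold above the rest and 2 highest in TG-2, of 6 tested, with a median difference of 0.32. The gene past 2-fold was *Prss56*, a serine protease gene, with 23.6 normalized counts in TG-2 and at most 8.27 elsewhere. The most abundant of the list, *Frzb*, *Gng8* and *Stoml3*, had differences of 0.09, 0.13 and 0.50. *Omp*, the marker of mature olfactory sensory neurons, had 15.8 normalized counts in TG-2 and 3.97 to 12.2 in the others.

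The genes that act with *Th* in catecholamine synthesis and transport were read beside it. Of 7 genes 5 were tested, TG-2 was at least 2-fold above the rest for 0 and highest for 2, and the median difference was 0.16. *Ddc*, which encodes the enzyme after tyrosine hydroxylase, had 78.3 normalized counts in TG-2 and 367 in WT-3. *Slc18a2*, the vesicular monoamine transporter, had 121 in TG-2 and 97.1 to 115 elsewhere, and *Gch1*, which makes the cofactor of tyrosine hydroxylase, had 53.9 and 35.5 to 52.4. *Slc6a3*, the dopamine transporter, was under the filter, with 6.23 normalized counts in TG-2 and at most 2.96 elsewhere.

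The lists for other cells gave 0 genes past 2-fold for paralogues of the 10 genes (9 tested), striatal neurons (10), cortical interneurons (8), cortical excitatory neurons (8) and ependymal cells (6), and 1 of 6 for choroid plexus. Their median differences were 0.08, 0.07, -0.05, -0.03, -0.57 and -0.33 in that order. The striatal list summed to 7199 normalized counts in TG-2 and to 6256 to 6848 in the other libraries, and the cortical interneuron list to 20682 against 20145 to 20880. *Gad1*, *Gad2* and *Sst*, the most abundant cortical interneuron genes, had TG-2 differences of 0.13, -0.01 and -0.04. The most abundant of the other lists had differences of 0.12, 0.38 and 0.09 for *Ppp1r1b*, *Pde10a* and *Penk* of the striatum. They were 0.05 and -0.22 for *Slc17a7* and *Cux2* of excitatory neurons, and 0.10, 0.10 and 0.01 for the paralogues *Syp*, *Dclk1* and *Tbr1*. *Foxj1*, *Rsph1* and *Rarres2* of ependymal cells had -0.32, -0.15 and 0.26. The ependymal list summed to 224 normalized counts in TG-2, and its highest library was WT-3 with 466. The choroid plexus gene past 2-fold was *Aqp1*, a water channel, with 47 normalized counts in TG-2 and at most 20.5 elsewhere. *Ttr*, the main choroid plexus transcript, was at 22.9 in TG-2 and 445 in TG-3, and *Kl* had a difference of -0.04. The part of bulb cells in the values of TG-2 was not tested.

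**Figure D4:**
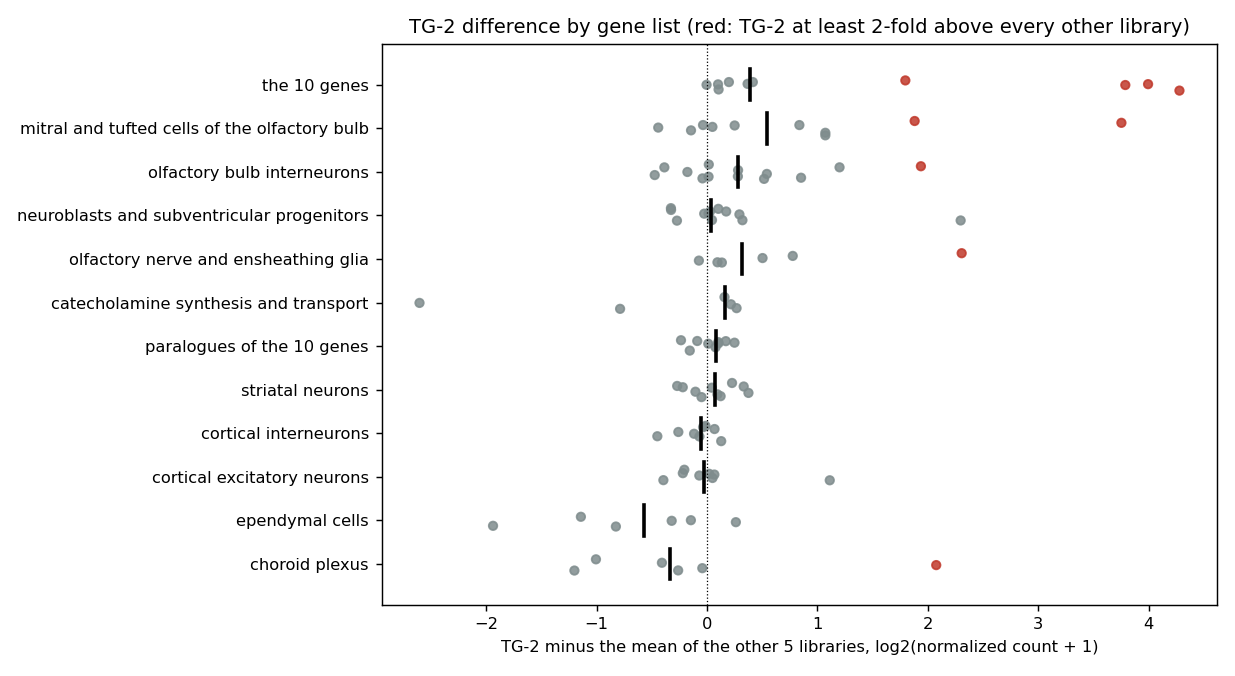
TG-2 minus the mean of the other 5 libraries, in log2(normalized count + 1), for each tested gene (points) of the 10 genes and of 11 lists (rows), with the median as a black bar and in red the genes in which TG-2 was at least 2-fold above every other library. The red points lie in the rows of the 10 genes, mitral and tufted cells, bulb interneurons, olfactory nerve and choroid plexus, and the cortical and striatal points lie between -0.45 and 0.38 except *Rorb* at 1.11.

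The 15 further genes with the largest difference between TG-2 and the highest other library were taken from all 16714 tested genes. Of these, *Apol7e*, *Gm28438*, *Rps13-ps1*, *Crabp1*, *Fam19a3* and *Prss56* passed the filter only through TG-2. *Apol7e*, an apolipoprotein L gene, and the pseudogene *Gm28438* had 95.9 and 37.3 normalized counts in TG-2 and are listed at 0 in the other 5 libraries, so no ratio is given. *Cdhr1* came next and *Calb2* eighth, and *Prss56* was the only other of the 15 that is in one of the lists. *Frmd7*, a FERM domain gene, had 115 normalized counts in TG-2 and 14.3 to 23.9 elsewhere. *Ppm1j*, a protein phosphatase gene, had 74.3 in TG-2 and 6.43 to 18.2 elsewhere. *Chrna3*, a nicotinic acetylcholine receptor subunit, had 44.5 in TG-2 and 6.56 to 12.8 elsewhere. For all 3 the other libraries did not reach the level of TG-2.

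*Vipr2*, a receptor for vasoactive intestinal peptide, had 73.4 normalized counts in TG-2 and 11.1 to 28.6 elsewhere, and *Ms4a15*, a membrane protein gene, had 129 in TG-2 and 50.3 in WT-3. *Adamts19*, a metalloprotease gene, had 64.7 in TG-2 and 11.5 in WT-3. For *Vipr2*, *Ms4a15* and *Adamts19*, as for *Cdhr1*, WT-3 was next after TG-2. *Crabp1*, a retinoic acid binding protein, *Fam19a3*, *Il13ra2* and the pseudogene *Rps13-ps1* completed the 15, with at most 33.3 normalized counts in TG-2. *Scgn*, *Tbx21*, *Eomes* and *Th* held the places 3, 7, 8 and 17 in the same ranking of all tested genes, and *Dlx1*, *Synpr*, *Meis2*, *Dcx*, *Dlx2* and *Sox11* the places 407, 1588, 2831, 4197, 8154 and 10400.

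**Figure D5:**
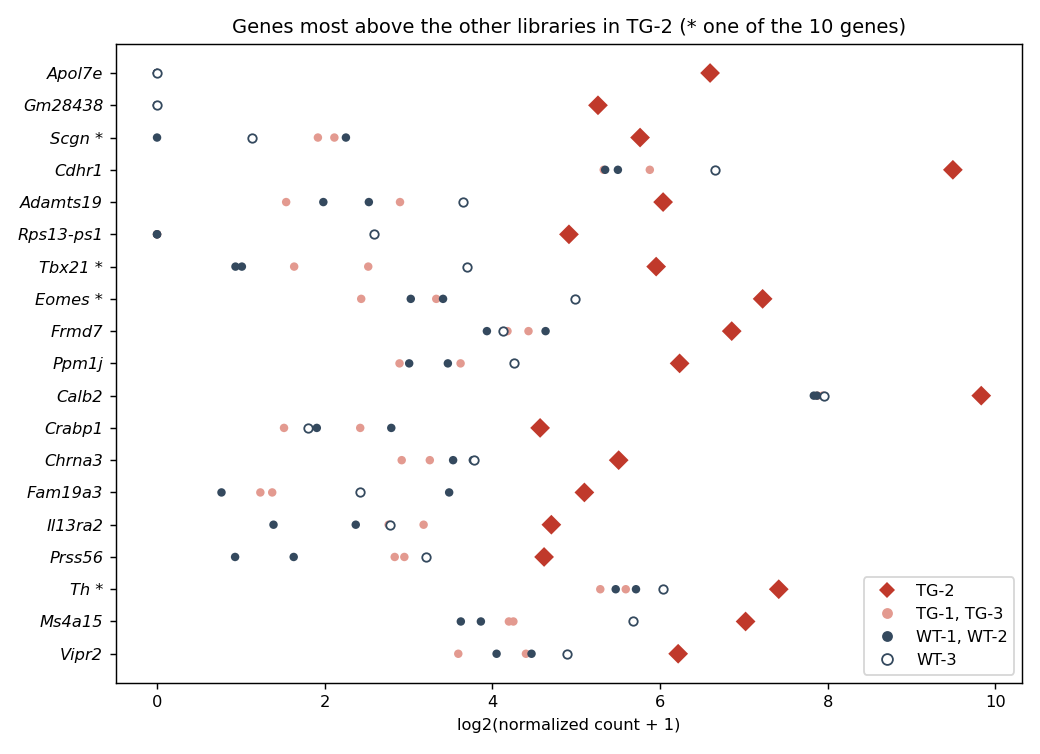
Log2(normalized count + 1) in each library (horizontal axis) for the 4 genes with a TG-2 excess of at least 2-fold, marked with an asterisk, and the 15 further genes with the largest excess, ordered from the largest at the top. The TG-2 diamond is the rightmost point in every row, and the open WT-3 circle is next for *Cdhr1*, *Tbx21*, *Eomes*, *Th* and *Ms4a15*, among others.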

How the data were processed

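RNA of pooled mPFC was made into stranded mRNA libraries and sequenced by a service provider, and the authors ran Salmon 0.9.1 against GRCm38 with GC bias correction, imported gene estimates with tximport and scaled them by DESeq2 size factors (DESeq2 1.19.11, R 3.6.0, per the submitters' processing notes). The deposited unit is thus a signal, a normalized count for each gene in each library, and 0.228% of those above 0 lay within 0.001 of a whole number. Reads were therefore not recovered, no counting interval was computed, and a floor of 3 normalized counts was used. Nothing says that a pool came from separate litters, so p-values measure the spread between pools.

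GENCODE M21 held 18215 of the 18254 gene identifiers. Per-kilobase levels divide by the union of the exons annotated there. Promoters came from RefSeq (GRCm38.p6), which matched all 10 genes. Calculations used R 4.3.3 and limma 3.58.1 (pseudocount 1, genes averaging 5 or more across the libraries fitted, genotype alone, eBayes with trend, two-sided, Benjamini-Hochberg threshold 0.05), and the fit was tested on simulated data. As alternatives, the pseudocount was 0.1 or 5 and the filter was dropped or raised to 50. Others were upper quartile and quantile normalization, a replicate block, eBayes without trend or robust, an empirical null that divides z-scores by their width, each library left out, libraries 1 and 2 alone, the mean of the other 5 libraries, and 1.5-fold. Deviations from the genotype mean correlated across genes at 0.302, 0.332 and 0.616 for libraries of the same number, so the numbers were taken as pairs by the rule that each pair exceed 0.1. TG-1 with WT-2 gave 0.266 and TG-2 with WT-1 gave 0.227, so numbers 1 and 2 are little apart.

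The 10 genes and the lists were chosen with earlier results of these data known. Named were the 10 genes, the 15 others with the largest TG-2 excess, the 3 most abundant genes of a list, the list genes with TG-2 at least 2-fold above the rest, and *Shank3*. Other list genes were named after their values were seen, and some genes that the rule names are not reported here.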

Additional observations from a re-analysis of the deposited data

How the results depend on the processing

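The count of 4 genes with TG-2 at least 2-fold above every other library was also 4 with each library other than TG-2 left out, with both pseudocounts, without a filter, with both normalizations, with libraries 1 and 2 only, against the mean of the other 5 libraries and at 1.5-fold. The exception was a mean of at least 50 normalized counts, where 7 of the 10 genes remained tested and 1, *Th*, passed. The median TG-2 difference stayed between 0.20 and 0.43. In limma's genotype test 0 of the 10 genes were called under each alternative. The count of 37 genes with such an excess was 27 with pseudocount 5, 60 without a filter, 7 at a mean of 50, 53 without WT-3 and 70 with libraries 1 and 2 only. Among all genes 0 were called, against 1 with the replicate block, with robust eBayes and with libraries 1 and 2 only, 26 with the empirical null and 0 to 1 with a library left out (1 without WT-3). The replicate block changed no other call.

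With a library left out, the log2 fold change of *Eomes* ranged from -0.92 to 1.47 and that of *Th* from -0.30 to 0.76, the lower value without TG-2 in both. That of *Dlx1* ranged from -0.187 to 0.064 and was positive without TG-1, TG-3 or WT-3, and 0.105 with libraries 1 and 2 only. That of *Dlx2* ranged from -0.047 to 0.198 (negative without TG-3 or WT-2), of *Sox11* from -0.070 to 0.147 (negative without TG-3, WT-1 or WT-2) and of *Dcx* from -0.019 to 0.153 (negative without WT-1). The cause was not tested. *Meis2*, *Synpr*, *Scgn* and *Tbx21* kept their sign where tested, with a library left out in ranges of 0.143 (without WT-1) to 0.360 (without WT-3), 0.087 (without WT-3) to 0.459 (without TG-3), 1.57 to 2.81 and 1.01 (without WT-1) to 2.40 (without WT-3), and 3.26 for *Tbx21* with libraries 1 and 2 only. The number of pools limits the precision, and values under 3 normalized counts are uncertain.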

Other observations

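The list genes *Rorb*, *Slc6a2* and *Igfbpl1* were named after their values were seen, and *Rorb* and *Slc6a2* varied between libraries in other ways. *Rorb*, a transcription factor gene of cortical layer 4, read 1974, 2072 and 540 normalized counts across the TG pools and 1151, 1124 and 586 across the WT pools, so that both libraries numbered 3 were the lowest. *Slc6a2*, the noradrenaline transporter, stood at 75.9 in TG-1 and at 53.8 in WT-2 but under 1 normalized count in the other 4 libraries. *Igfbpl1*, a gene of migrating neuroblasts, had 22 normalized counts in TG-2, 15.7 in WT-3 and at most 6.02 in the other libraries. Its order, with TG-2 first and WT-3 next, was that of *Eomes* and *Tbx21*.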
